A study of Mus musculus with 60 samples.

Results

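The genes described here are Fgf21, Gdf15, Bmp8b, Nrg4, Il6 and Igf1, 6 secreted factors of brown fat (batokines) that were taken by name from a table of 55011 genes, 39624 of which had a count in whole fat. RNA was sequenced from whole brown adipose tissue (BAT, 38 libraries in 12 groups) and whole subcutaneous adipose tissue (SAT, 14 libraries in 4 groups) of 8-week-old male mice, within a series of 60 libraries in 19 groups whose other libraries are sorted regulatory T (Treg) cells. The study removed Treg cells with diphtheria toxin (DT), and the strain for this was B6.Foxp3.DTR: DTR+ mice carry the toxin receptor under Foxp3, the gene of Treg cells, and DTR- mice lack it and received DT as well. DTR+ was set against DTR- in BAT and SAT at D4 (4 libraries a group) and D3 (3 a group), and D3 titles add PBS. Whether D3 and D4 count days is not stated. Groups of 3 BAT libraries were DTR+ with DT and CL, DTR- with DT and CL, and DTR- with DT and PBS. CL is taken to be the agonist of the beta-3 adrenergic receptor known by these letters, which the labels do not spell out. The cold group (BAT_4deg, 3 libraries at 4 degrees) is titled WT, labelled DTR- of the same strain, and given PBS with no DT named. It was set against the DTR- PBS group, so that temperature and toxin cannot be told apart. Wild-type C57BL/6J mice received anti-CD25 (PC61) or an isotype antibody (3 a group), and DTR+ mice with DT received an antibody against interferon gamma (aIFNg) or its isotype (3 a group). The labels do not say that replicates come from separate animals. The p-values therefore rest on the scatter among the libraries at hand, and part of it may be technical.

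Brown adipocytes burn fuel to make heat through the uncoupling protein Ucp1, and they also send signals to other cells and organs. Fgf21 is a hormone that acts through FGF receptors together with the coreceptor Klb, and Gdf15 is a stress hormone whose receptor Gfral sits in the hindbrain. Both are known targets of the integrated stress response, in which the transcription factor Atf4 raises transcription when translation is curbed. Bmp8b is a bone morphogenetic protein of thermogenic fat, Nrg4 an EGF-like ligand of the ErbB receptors made by brown adipocytes, Il6 a cytokine that signals through Il6st and Stat3, and Igf1 a growth factor made by many cell types, macrophages and fibroblasts among them.

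Fgf21, Gdf15 and Bmp8b had the largest fold changes of the 6 genes, and the bases before their start sites are printed to show which known stress-response letters stand there. The sequences are RefSeq promoter windows of GRCm38.p6, 250 bases long, read 5′ to 3′ on the strand of the gene and ending at the base before the start site. They cover chr7:45615491-45615740 (minus strand) for Fgf21, chr8:70632457-70632706 and chr8:70632096-70632345 (minus strand) for 2 start sites of Gdf15, and chr4:123104911-123105160 (plus strand) for Bmp8b. Capitals mark motif matches.
Fgf21: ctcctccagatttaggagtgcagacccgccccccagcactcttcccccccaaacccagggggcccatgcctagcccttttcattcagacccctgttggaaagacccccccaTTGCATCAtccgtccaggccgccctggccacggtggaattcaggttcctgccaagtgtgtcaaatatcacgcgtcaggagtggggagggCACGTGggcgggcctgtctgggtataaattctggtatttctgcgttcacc
Gdf15 first start site: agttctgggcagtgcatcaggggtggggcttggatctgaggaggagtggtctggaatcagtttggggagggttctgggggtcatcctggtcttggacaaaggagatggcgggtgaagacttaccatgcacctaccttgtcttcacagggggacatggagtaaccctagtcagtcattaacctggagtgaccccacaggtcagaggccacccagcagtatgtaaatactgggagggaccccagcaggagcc
Gdf15 second start site: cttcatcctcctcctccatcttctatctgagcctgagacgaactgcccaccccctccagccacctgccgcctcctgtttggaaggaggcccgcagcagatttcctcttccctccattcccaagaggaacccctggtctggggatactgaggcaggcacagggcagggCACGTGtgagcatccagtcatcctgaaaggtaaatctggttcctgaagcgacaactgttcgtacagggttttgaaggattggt
Bmp8b: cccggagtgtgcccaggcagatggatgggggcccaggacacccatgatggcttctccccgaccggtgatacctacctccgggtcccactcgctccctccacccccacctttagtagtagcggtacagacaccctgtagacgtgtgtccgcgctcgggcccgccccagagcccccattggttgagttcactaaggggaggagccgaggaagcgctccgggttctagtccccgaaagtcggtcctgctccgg
Both strands were searched for 4 motifs that do not overlap in these windows. TGATGCAA, the C/EBP-ATF response element, stood in 0.791% of 32851 promoter windows of the same length. TGACGTCA, the cyclic AMP response element, stood in 1.55%, the AP-1 site TGANTCA in 6.75% and the E-box CACGTG in 6.02%. The Fgf21 window held the C/EBP-ATF letters on the opposite strand (TTGCATCA, bases 139 to 132 before the start) and an E-box (bases 50 to 45). An E-box also stood in the second window of Gdf15 (bases 83 to 78). The first Gdf15 window, the Bmp8b window and that of Nrg4 held none of the 4, and the Il6 and Igf1 windows each held an AP-1 match. A match is a description of letters and not of binding.

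Depth allowed close measurement of Nrg4 and Igf1, and gave few counts of the rest in most groups. Higher counts were reached by Bmp8b in cold libraries (102 to 311), and by Gdf15 (57 to 170) and Fgf21 (16 to 80) in CL libraries. Whole-fat libraries held 3007241 to 9673342 counts. Summed markers of brown adipocytes ran from 9169 to 30529 CPM (counts per 1e+06, scaled by TMM factors) in BAT and from 587 to 2143 CPM in SAT, and adipocyte markers were high in both. Foxp3 had 0 to 7 counts in BAT and 0 to 29 in SAT libraries, too few to check the loss of Treg cells there. A pair of control libraries stood apart by T and NK cell markers: BAT DTR- PBS replicate 3 held 164 CPM of these against 9.47 and 18.2 in its group, and SAT DTR- D4 replicate 3 held 191 CPM against 21.3 to 22.4. Values of the 6 genes in comparisons that use them, and counts of pathway genes there, are given with and without them. Skeletal muscle markers varied within groups, from 18.8 to 5470 CPM in the DTR+ D4 BAT libraries for example. In whole tissue, fewer cells of a type and less RNA per cell cannot be told apart.

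Nrg4 was the most abundant of the 6 genes in BAT and Igf1 in SAT. Per kilobase of exon, the median level over BAT libraries was 28.4 CPM per kb for Nrg4 (range 16.5 to 51.6), 4.55 for Igf1 (1.78 to 7.43), 1.49 for Fgf21 (0 to 10.8), 1.24 for Gdf15 (0 to 14.3) and 0.0485 for Bmp8b (0 to 9.21). In SAT, the median was 33.1 CPM per kb for Igf1, 11.8 for Nrg4, 1.42 for Gdf15 and 0.439 for Fgf21. Il6 was listed at 0 in 27 of 38 BAT and 7 of 14 SAT libraries and never exceeded 14 counts, and Bmp8b never exceeded 2 counts in SAT. Il6 passed the filter on low counts in no comparison.

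**Figure D1:**
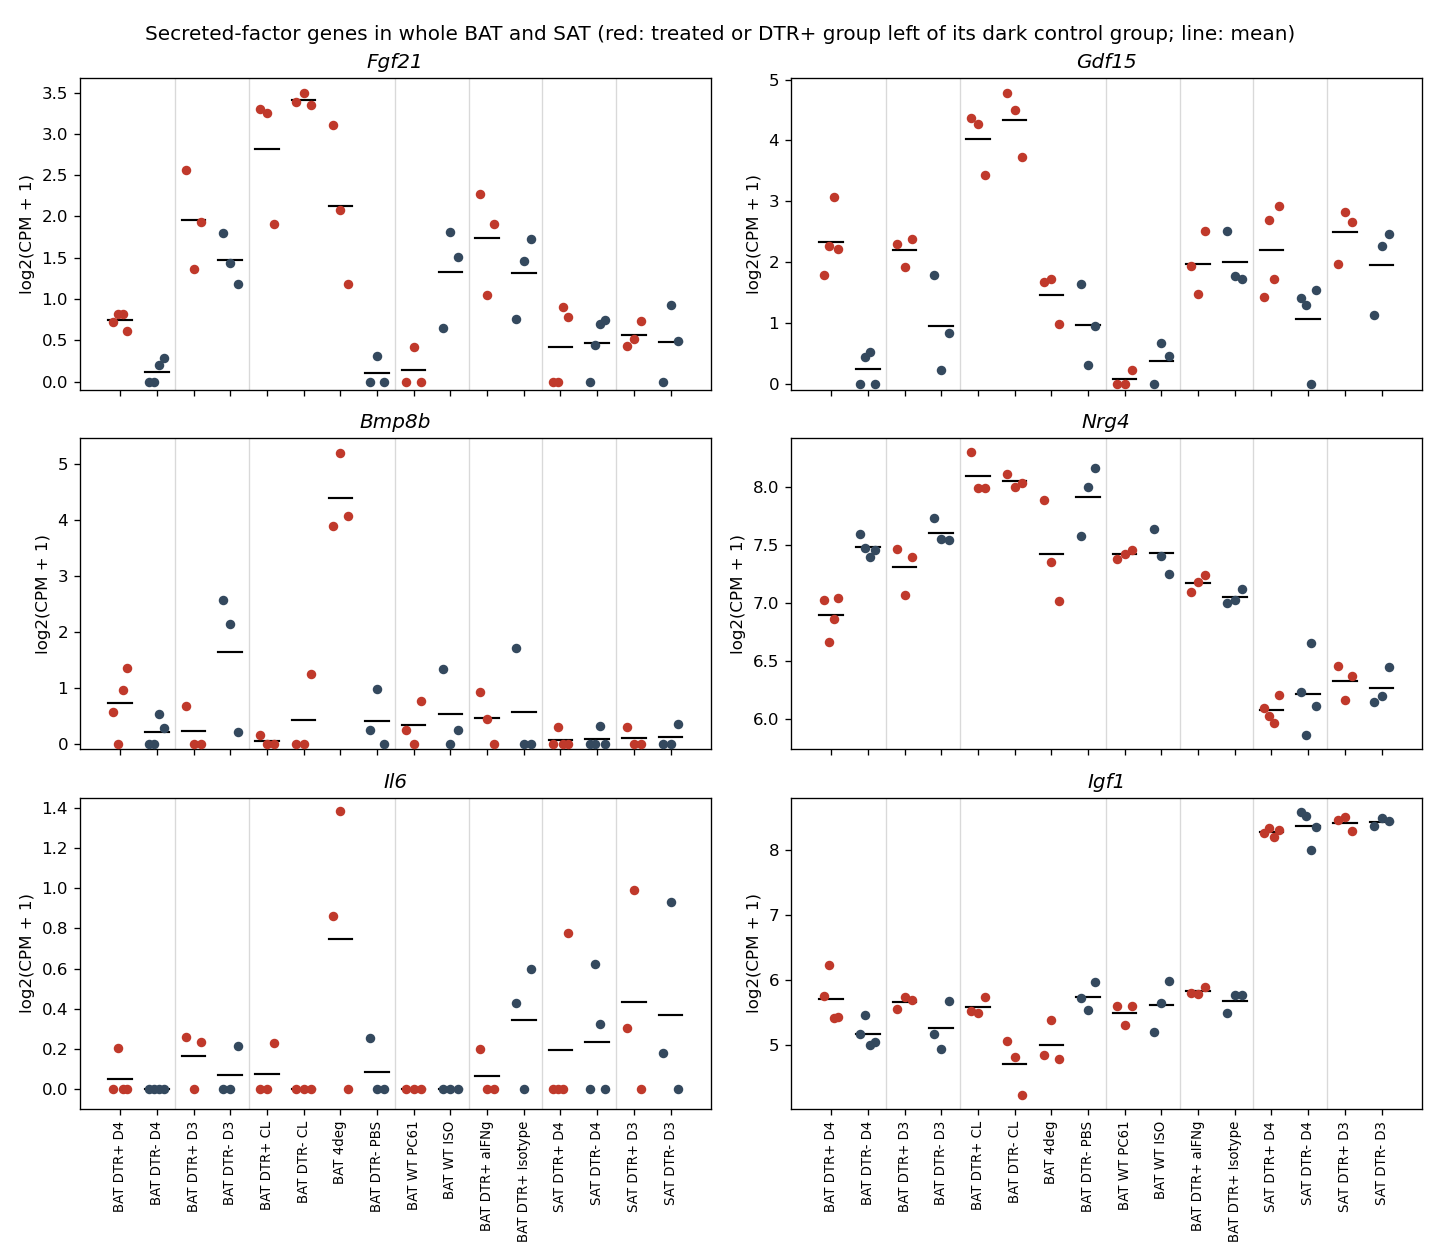
Level of each gene in each of 52 whole-fat libraries (points, log2 of CPM + 1, 1 panel a gene) in 16 groups, with each treated, cold or DTR+ group (red) left of its control group (dark) and a line at the group mean. Bmp8b is at 13.9 to 35.7 CPM in the cold libraries and at 4.93 CPM or less in every other library, and Igf1 is at 256 CPM or more in every SAT library and at 73.6 CPM or less in every BAT library.

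The genes sit at Fgf21 chr7:45613886-45615490, Gdf15 chr8:70629393-70632456, Bmp8b chr4:123105165-123132099, Nrg4 chr9:55220222-55326844, Il6 chr5:30013114-30019981 and Igf1 chr10:87858265-87937042 (GRCm38, GENCODE M21, which the deposited gene names match). Counts of some are less certain than others. Of 3815 words of 50 bases in Bmp8b exons, 10.3% also occur in other genes, 210 of them in its paralog Bmp8a, and Bmp8b overlaps Oxct2b and, on the other strand, Ppie. Nrg4 shares 401 of 6486 words (6.18%) and overlaps Fbxo22 on the opposite strand, and Igf1 has an antisense partner, Igf1os. Whether counting used strand is not given in the sources used here. Fgf21, Gdf15 and Il6 have no overlapping gene and no shared word.

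The stress hormones Fgf21 and Gdf15 were higher with CL. In DTR- BAT, 3 of the 4 members that passed the filter changed at an adjusted p under 0.05 (edgeR quasi-likelihood test), against 28.1% of 12048 genes in this comparison (16.3% higher and 11.8% lower): Fgf21 and Gdf15 rose and Igf1 fell. Fgf21 had 26, 48 and 80 counts in the DTR- CL libraries (9.44, 10.3 and 9.18 CPM), against 0, 1 and 0 counts in the DTR- PBS libraries (0, 0.243 and 0 CPM). Every CL library was far above every PBS library. Fgf21 passed the filter only through CL libraries, so its place among the 4 tested depended on being high there. The ratio of the summed counts per total was 165, with a 95% exact interval of 29.2 to 6554 that covers counting error only, and the log2 fold change was 6.94 ± 0.91 (SE, adjusted p = 9.78e-05). Its size turns on the PBS libraries: set against the DTR- D3 libraries, where Fgf21 was at 1.81 ± 0.608 CPM (SD, n = 3), it was 2.51 ± 0.44 (adjusted p = 0.00124).

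Gdf15 had 26.5, 21.7 and 12.3 CPM in the DTR- CL libraries, against 2.11, 0.243 and 0.933 CPM in the DTR- PBS libraries. The groups did not overlap, and the lowest CL library was several times above the highest PBS library. The log2 fold change was 4.22 ± 0.57 (adjusted p = 0.000119). Igf1 went the other way, with 32.3, 27.0 and 17.7 CPM in DTR- CL libraries, against 51.4, 45.2 and 61.2 CPM in DTR- PBS libraries. It fell by 0.96 ± 0.25 (log2, adjusted p = 0.0124), and this call was lost against DTR- D3 controls (-0.51, adjusted p = 0.189), against DTR- D4 controls (-0.40, adjusted p = 0.189) and without DTR- CL replicate 3 (-0.73, adjusted p = 0.0528). Macrophage and monocyte markers, of which all 12 were detected, moved with Igf1, at 222 to 245 CPM summed in the DTR- CL libraries and 327 to 891 in the DTR- PBS libraries. Their part in the result was not tested.

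Nrg4, the ErbB ligand, averaged 263 ± 10.7 CPM in DTR- CL libraries and 243 ± 48.7 CPM in DTR- PBS libraries (SD, n = 3 each), a log2 difference of 0.21 ± 0.18 (adjusted p = 0.406). Against DTR- D3 and D4 controls it was higher in the CL libraries, by 0.53 (adjusted p = 0.00954) and 0.65 (adjusted p = 0.000668). Bmp8b had 0, 0 and 12 counts in DTR- CL libraries, against 1, 4 and 0 counts in DTR- PBS libraries, and was too low to test. Without PBS replicate 3, which stood apart, the log2 fold changes in CL were 6.29 for Fgf21 (adjusted p = 0.000354), 4.07 for Gdf15 (adjusted p = 0.000458), -0.835 for Igf1 (adjusted p = 0.0497) and 0.35 for Nrg4 (adjusted p = 0.253), and no call changed.

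Bmp8b was higher in the cold group. It was the single member called among 4 that passed the filter at 4 degrees, against 8.66% of 12329 genes (4.86% higher). Bmp8b passed the filter only through its cold libraries, so its place among the 4 depended on being high there. Bmp8b had 102, 311 and 112 counts in the cold libraries (13.9, 35.7 and 15.7 CPM), against 1, 4 and 0 counts in the DTR- PBS libraries (0.192, 0.971 and 0 CPM). The groups were far apart, and replicate 2 was the highest of the cold libraries. The ratio of summed counts was 78.3 (95% exact interval 33.4 to 242, counting error only) and the log2 fold change 6.01 ± 0.78 (adjusted p = 0.00161). The paralog Bmp8a had 0 counts in all 3 cold libraries. Bmp8b remained higher in cold against each other control group, by 2.96 over DTR- D3 (adjusted p = 0.0295), 6.77 over DTR- D4 (adjusted p = 3.46e-06) and 5.16 over the wild-type isotype group (adjusted p = 0.00102). Of the other control groups, DTR- D3 had the most Bmp8b, with 22, 20 and 1 counts.

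Fgf21 had 56, 28 and 9 counts in the cold libraries (7.63, 3.22 and 1.26 CPM), against 0, 1 and 0 counts in the DTR- PBS libraries. The groups did not overlap, though the cold libraries differed several-fold from each other. The gene fell below the filter in this pair of groups. The ratio of summed counts was 69.4 (95% exact interval 12.1 to 2769.55, counting error only), and without the filter the log2 fold change was 5.60 ± 1.31 (adjusted p = 0.000727). Without PBS replicate 3, which stood apart, the gene passed the filter at 4.94 ± 1.37 (adjusted p = 0.0497), and without PBS replicate 1 it was at 5.16 (adjusted p = 0.0835). Set against the DTR- D3 libraries it was 1.12 ± 0.69 (adjusted p = 0.27) and against the wild-type isotype libraries 1.23 ± 0.76 (adjusted p = 0.264), so that the call rests on which controls are used.

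Gdf15 averaged 1.82 ± 0.727 CPM in the cold libraries and 1.10 ± 0.944 CPM in the DTR- PBS libraries (SD, n = 3 each), a log2 difference of 0.68 ± 0.88 (adjusted p = 0.696). Igf1 had 27.6, 40.7 and 26.3 CPM in cold libraries, all below the 51.4, 45.2 and 61.2 CPM of DTR- PBS libraries, and its log2 difference of -0.77 ± 0.22 missed the threshold (adjusted p = 0.0592). Macrophage and monocyte markers moved with it, at 252 to 322 CPM summed in cold and 327 to 891 CPM in DTR- PBS libraries, with 1 of 12 called lower (median log2 difference -1.12), and their part was not tested. Nrg4 had 236, 163 and 128 CPM in cold libraries, against 190, 254 and 285 CPM in DTR- PBS libraries, groups that overlapped (-0.49 ± 0.22, adjusted p = 0.204). Il6 had 6, 14 and 0 counts in the cold libraries, the highest of any BAT group, against 1, 0 and 0 in the DTR- PBS libraries (adjusted p = 0.469 without a filter). Without PBS replicate 3, Bmp8b rose by 5.24 (adjusted p = 0.00184), Igf1 was at -0.65 (adjusted p = 0.131), Nrg4 at -0.38 (adjusted p = 0.379) and Gdf15 at 0.54 (adjusted p = 0.82).

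The CL and cold comparisons share the 3 DTR- PBS libraries. Side by side, Fgf21 averaged 9.64 ± 0.584 CPM in DTR- CL, 4.04 ± 3.26 in cold and 0.0809 ± 0.140 in DTR- PBS libraries (SD, n = 3 each). Gdf15 averaged 20.2 ± 7.24 CPM in DTR- CL, 1.82 ± 0.727 in cold and 1.10 ± 0.944 in DTR- PBS libraries. Bmp8b averaged 0.459 ± 0.795 CPM in DTR- CL, 21.8 ± 12.1 in cold and 0.388 ± 0.514 in DTR- PBS libraries. Each of Gdf15 and Bmp8b was thus high in 1 of the 2 treatments and Fgf21 had counts in every library of both. The difference between the treatments was not tested.

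**Figure D2:**
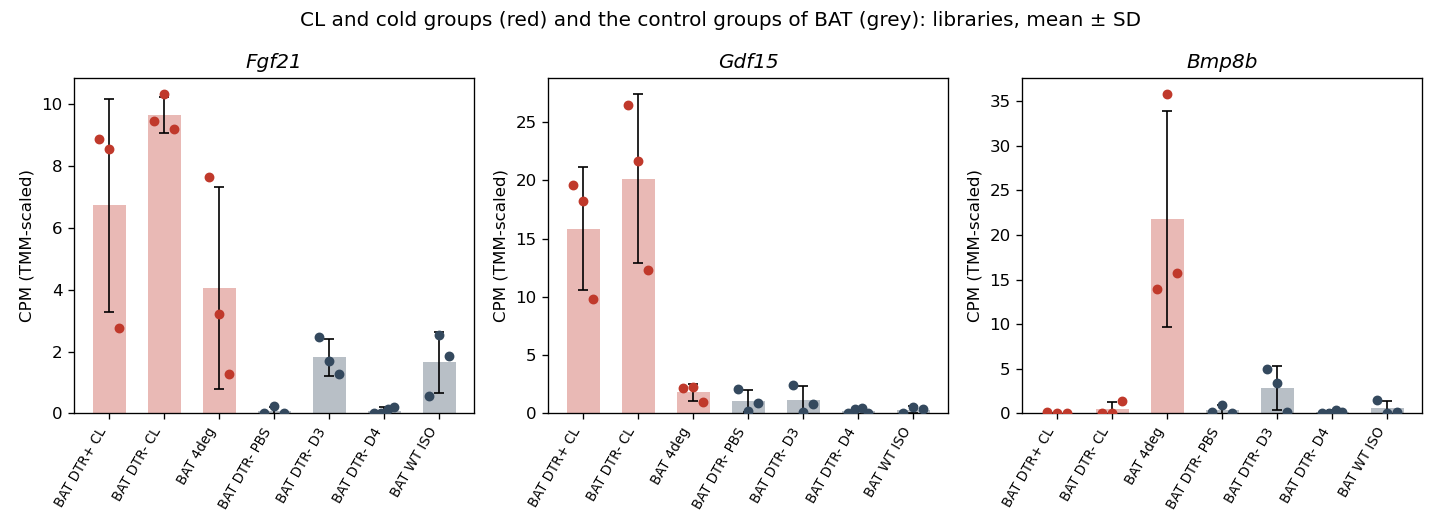
CPM of Fgf21, Gdf15 and Bmp8b (points: libraries; bars: group mean; error bars: SD) in the CL and cold groups (red) and the control groups of BAT (grey). Bmp8b averages 21.8 CPM in cold and 2.83 CPM or less in the other groups, Gdf15 averages 20.2 and 15.9 CPM in the CL groups, and Fgf21 differs between the control groups.

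At D4, 3 members differed between DTR+ and DTR- BAT. Of the 3 that passed the filter, Gdf15 and Igf1 rose and Nrg4 fell, against 16.1% of 11695 genes called in this comparison (8.73% higher and 7.36% lower). Gdf15 had 15, 25, 39 and 14 counts in DTR+ BAT (2.44, 3.81, 7.43 and 3.65 CPM), against 0, 2, 3 and 0 counts in DTR- BAT (0, 0.352, 0.442 and 0 CPM). All DTR+ libraries were above all DTR- libraries. Gdf15 passed the filter only through its DTR+ libraries, so its place among the 3 tested depended on being high there. The log2 fold change was 4.25 ± 0.71 (adjusted p = 0.000742), and the ratio of summed counts was 24.2 (95% exact interval 9.997 to 76.2). The call held in each of 14 alternatives, between 3.84 and 4.92.

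Nrg4 had 129, 100, 115 and 131 CPM in DTR+ D4 BAT, against 192, 176, 167 and 174 CPM in DTR- D4 BAT. The groups did not overlap, and Nrg4 fell by 0.53 ± 0.10 (log2, adjusted p = 0.00258). Scaling by library totals in place of TMM moved the median of all genes by 0.25 and gave -0.28 for Nrg4 (adjusted p = 0.0705). Summed brown adipocyte markers moved with it, at 9169 to 10734 CPM in DTR+ and 14311 to 17287 CPM in DTR- D4 BAT. Of the 8 markers, 1 was called higher, 3 lower and 4 not called (median log2 difference -0.37). The sum is weighted to the most abundant markers, and the markers' part in the fall of Nrg4 was not tested.

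Igf1 had 52.9, 73.6, 41.3 and 42.0 CPM in DTR+ D4 BAT, against 34.9, 42.9, 30.8 and 32.03 CPM in DTR- D4 BAT, groups that overlapped slightly. It rose by 0.64 ± 0.18 (adjusted p = 0.0236). The call was lost without DTR+ replicate 2 (0.42, adjusted p = 0.0917) or without DTR- replicate 1, 3 or 4 (0.55 to 0.60, adjusted p = 0.0732 to 0.0852). Macrophage and monocyte markers were at 636 to 1349 CPM summed in DTR+ and 188 to 414 CPM in DTR- D4 BAT, with 8 of 12 called higher, and T and NK cell markers were at 21.2 to 58.6 CPM in DTR+ and 6.45 to 8.09 CPM in DTR- libraries. Their part in the Igf1 and Gdf15 results was not tested.

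Fgf21 was below the filter at D4. It had 4, 5, 4 and 2 counts in DTR+ BAT and 0, 0, 1 and 1 counts in DTR- BAT, which do not overlap. The ratio of summed counts was 9.75 (95% exact interval 2.27 to 87.9), and the log2 fold change without the filter was 2.69 ± 1.39 (adjusted p = 0.3). Bmp8b had 3, 0, 5 and 6 counts in DTR+ and 0, 0, 3 and 1 counts in DTR- D4 BAT, and Il6 a single count in 1 DTR+ library.

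At D3 no member was called in BAT, against 3.52% of 11666 genes, though 4 were tested. Gdf15 had 3.92, 2.79 and 4.21 CPM in DTR+ D3 BAT, against 2.47, 0.170 and 0.792 CPM in DTR- D3 BAT. The groups did not overlap, and the log2 difference was 1.77 ± 0.66 (adjusted p = 0.176). Fgf21 had 25, 9 and 16 counts in DTR+ D3 BAT and 11, 10 and 8 counts in DTR- D3 BAT (0.81 ± 0.55, adjusted p = 0.482), which overlap. Nrg4 was at -0.26 ± 0.13 (adjusted p = 0.29) and Igf1 at 0.40 ± 0.19 (adjusted p = 0.291). Bmp8b, below the filter, had 3, 0 and 0 counts in DTR+ D3 BAT and 22, 20 and 1 counts in DTR- D3 BAT, with an adjusted p of 0.00575 without the filter and 0.243 in a fit of all BAT libraries (edgeR). Macrophage and monocyte markers stood at 389 to 439 CPM in DTR+ and 177 to 300 CPM in DTR- D3 BAT, with 1 of 12 called higher. The D4 and D3 effects in BAT were not shown to differ: Gdf15 was at 2.52 ± 1.09 (adjusted p = 0.794). In that test edgeR called none of 12757 genes (0%), DESeq2 called 4, and 732 were below 0.05 before adjustment.

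In SAT no member was called at D4 (0.314% of 12728 genes) or at D3 (0% of 12596 genes). Gdf15 had 1.70, 5.49, 2.32 and 6.57 CPM in DTR+ D4 SAT, against 1.65, 1.44, 0 and 1.90 CPM in DTR- D4 SAT. The DTR+ libraries spread widely and their lowest overlapped the DTR- group. The log2 difference was 1.70 ± 0.72 (adjusted p = 0.629), and 1.27 (adjusted p = 0.596) without DTR- replicate 3, which stood apart. At D3 it averaged 4.79 ± 1.66 CPM in DTR+ SAT and 3.17 ± 1.76 CPM in DTR- SAT (adjusted p = 0.982). Igf1 averaged 312 ± 13.9 CPM in DTR+ D4 SAT and 335 ± 58.3 CPM in DTR- D4 SAT (SD, n = 4 each; -0.09 ± 0.12, adjusted p = 0.902), and Nrg4 was at -0.16 ± 0.16 (adjusted p = 0.859). Without DTR- replicate 3, Igf1 was at -0.20 (adjusted p = 0.695) and Nrg4 at 0.016 (adjusted p = 0.987). At D3 DESeq2 called 18 genes, and 629 were below 0.05 in edgeR before adjustment.

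Whether depletion acted differently in BAT and SAT was tested as an interaction. At D4 no member was called, against 4.11% of 13502 genes. The BAT effect minus the SAT effect was 0.70 ± 0.22 for Igf1 (adjusted p = 0.0879), 2.55 ± 1.16 for Gdf15 (adjusted p = 0.239) and -0.39 ± 0.19 for Nrg4 (adjusted p = 0.278). Without the SAT DTR- library that stood apart, Igf1 was at 0.85 (adjusted p = 0.0229), Gdf15 at 3.02 (adjusted p = 0.0738) and Nrg4 at -0.53 (adjusted p = 0.0649). At D3 no member was called either, against 0.0675% of 13325 genes.

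**Figure D3:**
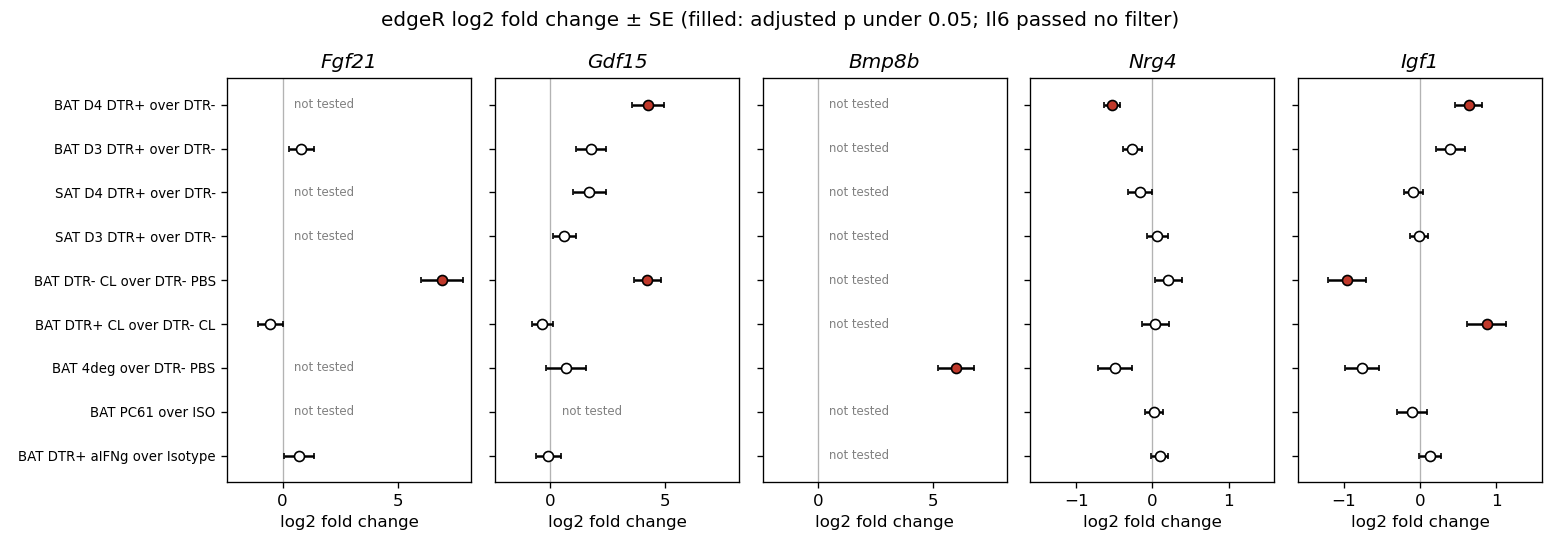
Log2 fold change with SE (edgeR) of 5 members in 9 comparisons, filled where the adjusted p was under 0.05, with genes below the filter written as not tested. Gdf15 is filled for DTR+ over DTR- BAT at D4 and for CL, Bmp8b for cold, and Igf1 lies on opposite sides of 0 for CL over PBS and for DTR+ over DTR- within CL.

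Within CL-treated BAT, Igf1 was higher in DTR+ than in DTR- mice and was the single member called of 4 tested, against 7.72% of 12048 genes (4.51% higher). The DTR- CL libraries are the same as in the comparison with PBS. Igf1 had 45.0, 43.6 and 52.3 CPM in DTR+ CL libraries, against 32.3, 27.0 and 17.7 CPM in DTR- CL libraries. The groups did not overlap, and the log2 fold change was 0.88 ± 0.25 (adjusted p = 0.0499). The call was lost with RLE factors (0.85, adjusted p = 0.0542), with a replicate block (adjusted p = 0.0779) and without any of the 6 libraries (adjusted p = 0.0523 to 0.159). Macrophage and monocyte markers were at 1093 to 1241 CPM summed in DTR+ CL and 222 to 245 CPM in DTR- CL libraries, with 10 of 12 called higher, and their part in the result was not tested.

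Fgf21 had 8.87, 8.54 and 2.75 CPM in DTR+ CL libraries, against 9.44, 10.3 and 9.18 CPM in DTR- CL libraries. All DTR+ libraries were below the DTR- ones, and replicate 3 made most of the gap, but the log2 difference of -0.53 ± 0.56 did not pass (adjusted p = 0.611). Gdf15 had 19.6, 18.2 and 9.80 CPM in DTR+ CL libraries, against 26.5, 21.7 and 12.3 CPM in DTR- CL libraries, which overlap (-0.34 ± 0.46, adjusted p = 0.701). Nrg4 averaged 273 ± 35.2 CPM in DTR+ CL and 263 ± 10.7 CPM in DTR- CL libraries (SD, n = 3 each; adjusted p = 0.926).

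Neither antibody experiment called a member. Against 0.651% of 11513 genes with PC61 and 0.541% of 12017 genes with aIFNg, 0 of 2 and 0 of 4 tested members passed. Fgf21 had 0, 2 and 0 counts in PC61 libraries, against 3, 13 and 10 counts in isotype libraries. These groups do not overlap and the gene was below the filter, with a ratio of summed counts of 0.0780 (95% exact interval 0.00898 to 0.312) and a log2 difference of -3.57 without the filter (adjusted p = 0.205). Gdf15 had 0, 0 and 1 counts in PC61 libraries and 0, 3 and 2 counts in isotype libraries. Nrg4 averaged 170 ± 4.87 CPM in PC61 and 172 ± 23.7 CPM in isotype libraries, and Igf1 44.2 ± 4.97 CPM in PC61 and 48.9 ± 13.4 CPM in isotype libraries (SD, n = 3 each; adjusted p = 0.972 and 0.89).

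With aIFNg in DTR+ mice, Fgf21 had 26, 6 and 17 counts, against 4, 8 and 9 counts with isotype, groups that overlap (0.71 ± 0.64, adjusted p = 0.847). Gdf15 averaged 3.09 ± 1.48 CPM with aIFNg and 3.14 ± 1.34 CPM with isotype (adjusted p = 0.982). Nrg4 averaged 143 ± 7.51 CPM with aIFNg and 131 ± 6.01 CPM with isotype (adjusted p = 0.884). Igf1 averaged 55.8 ± 2.33 CPM with aIFNg and 50.2 ± 5.46 CPM with isotype (SD, n = 3 each; 0.13 ± 0.15, adjusted p = 0.88), and its libraries did not overlap between the groups.

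Between tissues, Nrg4 was higher and Igf1 lower in BAT than in SAT of DTR- mice. At D4 the 3 members tested were all called, against 48.9% of 13502 genes (22.6% higher and 26.3% lower in BAT). At D3 3 of 4 were called, against 46.4% of 13325 genes (22.8% higher and 23.6% lower). Nrg4 averaged 177 ± 10.4 CPM in BAT and 74.7 ± 18.2 CPM in SAT at D4 (SD, n = 4 each; 1.22 ± 0.14, adjusted p = 2.18e-07), and 194 ± 14.9 CPM in BAT and 76.1 ± 8.97 CPM in SAT at D3 (SD, n = 3 each; 1.36 ± 0.13, adjusted p = 9.36e-08). Igf1 averaged 35.1 ± 5.46 CPM in BAT and 335 ± 58.3 CPM in SAT at D4, and fell by 3.27 ± 0.17 (log2, adjusted p = 4.18e-12). At D3 it fell by 3.16 ± 0.16 (adjusted p = 7.29e-11). Macrophage and monocyte markers were lower in BAT too (188 to 414 CPM in BAT and 1116 to 2917 CPM in SAT at D4, 12 of 12 called), as were fibroblast markers (1240 to 1646 CPM in BAT and 4474 to 12176 CPM in SAT, 8 of 9 called), and their part was not tested.

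Gdf15 was lower in BAT than in SAT at D4 (0.198 ± 0.232 CPM in BAT and 1.25 ± 0.852 CPM in SAT; -2.45 ± 0.95, adjusted p = 0.0369), a call lost in 6 of 14 alternatives, and at D3 the difference of -1.52 ± 0.67 did not pass (adjusted p = 0.0729). Fgf21 was higher in BAT at D3, with 2.47, 1.70 and 1.27 CPM in BAT, against 0, 0.907 and 0.410 CPM in SAT (2.09 ± 0.83, adjusted p = 0.0463), and the call was lost in 9 of 12 alternatives. At D4, where DTR- BAT had 0, 0, 1 and 1 counts, Fgf21 was too low to test. Without SAT DTR- D4 replicate 3, the D4 differences between BAT and SAT were 1.35 for Nrg4 (adjusted p = 9.48e-09), -3.43 for Igf1 (adjusted p = 7.73e-13) and -2.93 for Gdf15 (adjusted p = 0.00414).

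Ordered by mean level over the 16 groups, Fgf21, Gdf15 and Nrg4 were highest in the 2 CL groups, Bmp8b and Il6 in the cold group and Igf1 in the 4 SAT groups. For Bmp8b the step from cold (21.8 ± 12.1 CPM) to the next group, DTR- D3 BAT (2.83 ± 2.44 CPM), exceeded the larger SD of the pair, and no later step did. Gdf15 had such a step between DTR+ CL (15.9 ± 5.30 CPM) and the next group (DTR+ D3 SAT, 4.79 ± 1.66 CPM). For Igf1 the step lay between the lowest SAT group (DTR+ D4, 312 ± 13.9 CPM) and the highest BAT group (aIFNg, 55.8 ± 2.33 CPM), and neighbouring BAT groups differed by less than their SD. Nrg4 stood between 66.4 ± 4.82 CPM (DTR+ D4 SAT) and 273 ± 35.2 CPM (DTR+ CL BAT). For Fgf21, neighbours among the 8 highest groups differed by less than their SD, and the steps above and below DTR+ D4 BAT (0.674 ± 0.114 CPM) were larger than the SD.

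**Figure D4:**
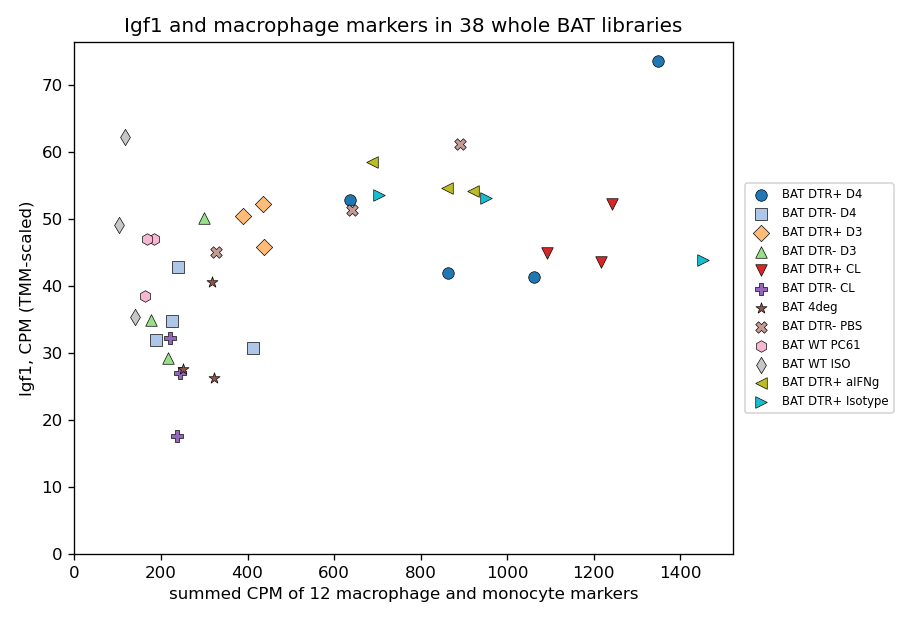
Igf1 (CPM) against the summed CPM of 12 macrophage and monocyte markers in 38 whole BAT libraries, 1 symbol a group. The DTR+ D4 and DTR+ CL libraries lie above their DTR- controls on both axes, apart from a slight overlap in Igf1 at D4. The DTR- CL group has the lowest mean of Igf1, at 222 to 245 CPM of markers. Its libraries (17.7 to 32.3 CPM of Igf1) overlap those of the cold group (26.3 to 40.7 CPM). The wild-type isotype libraries reach 35.4 to 62.2 CPM of Igf1 at 104 to 141 CPM of markers.

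Igf1 and the summed macrophage and monocyte markers had group means in the same direction in 5 of the BAT comparisons. Both were higher in DTR+ than in DTR- libraries at D4, at D3 and within CL, and both were lower in CL and in cold than in DTR- PBS libraries, where the Igf1 differences at D3 and in cold did not pass the test. The 5 comparisons are not independent. CL over PBS and DTR+ over DTR- within CL share the DTR- CL libraries, and CL and cold share the DTR- PBS libraries. The antibody groups differed from the pattern of a shared direction: with PC61 the markers stood at 163 to 184 CPM, against 104 to 141 CPM with isotype, and Igf1 at 38.5 to 47.1 CPM, against 35.4 to 62.2 CPM. With aIFNg the markers stood at 687 to 921 CPM, against 703 to 1454 CPM with isotype, and Igf1 averaged 55.8 CPM, against 50.2 CPM. The wild-type isotype libraries had 35.4, 49.1 and 62.2 CPM of Igf1 with the lowest marker sums of any BAT group (104 to 141 CPM), and DTR- CL libraries had 17.7 to 32.3 CPM of Igf1 at 222 to 245 CPM of markers. In SAT at D4, Igf1 and the marker sums overlapped between DTR+ (1799 to 2839 CPM of markers) and DTR- libraries (1116 to 2917 CPM).

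A list of 14 genes joined transcription factors of the integrated stress response with targets of Atf4, the nuclear receptor Ppara, the coactivator Ppargc1a and Ucp1, so that its counts are not counts of regulators of Fgf21 and Gdf15 alone. In CL, 9 of 14 rose and none fell, against 16.3% of all genes higher and 11.8% lower, with a median log2 difference of 1.88 against -0.03 over all genes. Ppargc1a, the coactivator of mitochondrial biogenesis, stood at 2169 ± 502 CPM in DTR- CL and 77.7 ± 15.6 CPM in DTR- PBS libraries (4.89 ± 0.32, adjusted p = 6.05e-07). Atf4 stood at 570 ± 97.3 CPM in DTR- CL and 84.7 ± 14.4 CPM in DTR- PBS libraries (2.84 ± 0.21, adjusted p = 6.46e-07). Ppara, the fatty acid receptor that drives Fgf21 in liver, rose by 3.21 ± 0.28 (adjusted p = 3.83e-06) and Sesn2, an Atf4 target, by 3.67 ± 0.35 (adjusted p = 9.49e-06). The others called were Atf3 (4.66), Cebpb (4.59), Chac1 (2.18), Atf5 (1.59) and Ucp1 (0.84), given as log2 fold changes. Trib3, Asns, Psat1, Phgdh and Ddit3, all known targets of Atf4, were not called. Without PBS replicate 3, 8 of 14 rose, against 19.8% of all genes called, and Cebpb lost its call (adjusted p = 0.0632).

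In D4 BAT, 5 of the 14 rose and 2 fell with depletion, against 8.73% of all genes higher and 7.36% lower (median 0.55 against 0.02 over all genes). Atf3 averaged 30.0 ± 15.8 CPM in DTR+ and 3.58 ± 1.88 CPM in DTR- libraries (3.12 ± 0.53, adjusted p = 0.00471). Atf4 averaged 127 ± 16.1 CPM in DTR+ and 75.9 ± 1.41 CPM in DTR- libraries (0.80 ± 0.11, adjusted p = 0.000139), and Ddit3 rose by 0.99 ± 0.15 (adjusted p = 0.000391), with Psat1 and Ppargc1a the other members of the list called higher and Atf5 called lower. Ucp1 fell by 1.08 ± 0.09 (adjusted p = 3.2e-06), with 2631 ± 184 CPM in DTR+ and 5781 ± 778 CPM in DTR- libraries. At D3, 2 rose and 1 fell, against 3.52% of all genes called, and Atf3 rose by 2.44 ± 0.29 (adjusted p = 0.000439), while the calls of Atf4 (higher) and Atf5 (lower) were lost in 7 and 6 of 12 alternatives. Within CL, Ppara fell by 1.40 ± 0.26 with depletion (adjusted p = 0.00737), at 225 ± 83.4 CPM in DTR+ CL and 593 ± 46.6 CPM in DTR- CL libraries, and the other 13 were not called, against 7.72% of all genes called. In cold 2 of 14 rose, against 4.86% of all genes, and 2 also without PBS replicate 3: Ucp1 by 0.98 ± 0.14 (adjusted p = 0.00203) and Ppargc1a by 1.11 ± 0.22 (adjusted p = 0.0126), the second lost against DTR- D3 and wild-type isotype controls and without DTR- PBS replicate 1 or 2 or cold replicate 3.

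**Figure D5:**
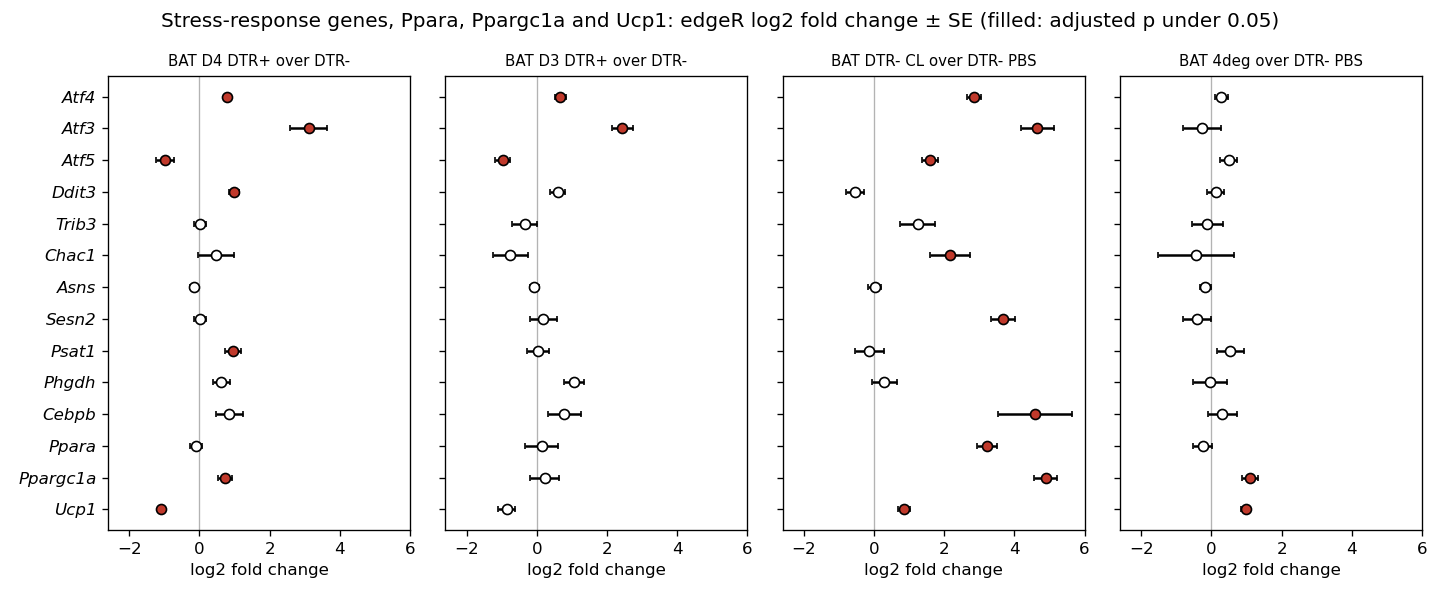
Log2 fold change with SE (edgeR) of 14 genes (stress-response factors and targets, Ppara, Ppargc1a and Ucp1) in 4 BAT comparisons, filled where the adjusted p was under 0.05. In CL 9 of 14 are filled, all above 0, and in cold Ppargc1a and Ucp1 are filled.

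Of 22 receptor genes, few were called with depletion. In D4 BAT, Il6st, the shared receptor subunit of the Il6 family, rose by 0.60 ± 0.12 (adjusted p = 0.00222), and Klb, the Fgf21 coreceptor, fell by 0.65 ± 0.11 (adjusted p = 0.00103), with 17 of 19 tested not called, against 16.1% of all genes called. Klb averaged 56.0 ± 5.31 CPM in DTR+ and 91.0 ± 8.18 CPM in DTR- libraries (SD, n = 4 each). In CL, 3 of 18 rose and 2 fell, a share near the 28.1% of all genes called. Without PBS replicate 3 the counts were again 3 and 2 (19.8% of all genes). Fgfr1 then lost its call (adjusted p = 0.0537) and Acvr2a was called higher (adjusted p = 0.0262). The insulin receptor Insr rose by 1.15 ± 0.23 (adjusted p = 0.0022) and Il6st by 0.94 ± 0.19 (adjusted p = 0.00229), and Acvr1c, a TGF-beta family receptor, fell by 1.22 ± 0.23 (adjusted p = 0.00162). Within CL, Insr fell by 1.14 ± 0.23 with depletion (adjusted p = 0.00934; 0.0512 without DTR+ CL replicate 3). Between tissues at D4, 1 of 19 receptors was higher and 7 lower in BAT, against 22.6% and 26.3% of all genes, and 2 were higher and 8 lower without SAT DTR- replicate 3. Egfr fell by 3.91 ± 0.37 (adjusted p = 2.56e-07) and Fgfr1 by 1.31 ± 0.15 (adjusted p = 2.4e-07).

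Signal mediators and feedback targets of the members' receptors formed a list of 28. Of 25 tested, 5 rose and 1 fell at D4, against 16.1% of all genes called, and 4 rose at D3, against 3.52% (medians 0.35 and 0.40 against 0.02 over all genes in each). Socs3, the feedback inhibitor of Il6st signalling, averaged 16.8 ± 5.51 CPM in DTR+ and 2.72 ± 0.273 CPM in DTR- libraries at D4 (2.67 ± 0.30, adjusted p = 3.35e-05) and rose by 2.17 ± 0.31 at D3 (adjusted p = 0.00132). At D4, Stat3 rose by 1.02 ± 0.12 (adjusted p = 6.13e-05) and Bcl3, a nuclear I-kappa-B protein, by 1.32 ± 0.21 (adjusted p = 0.000455), and Id1, a target of BMP signalling, fell by 0.65 ± 0.13 (adjusted p = 0.00275). In CL, 9 of 25 rose and 4 fell, against 16.3% of all genes higher and 11.8% lower, and without PBS replicate 3 these were 6 and 2 (19.8% of all genes called). Irs2, an adaptor of the insulin and Igf1 receptors, averaged 241 ± 13.9 CPM in DTR- CL and 16.2 ± 7.52 CPM in DTR- PBS libraries (3.96 ± 0.30, adjusted p = 1.02e-06). The FGF feedback inhibitor Spry4 rose by 3.52 ± 0.39 (adjusted p = 3.72e-05) and Smad7, which curbs TGF-beta family signals, by 2.41 ± 0.49 (adjusted p = 0.00268), and Stat5a fell by 2.34 ± 0.25 (adjusted p = 1.67e-05). In cold, 3 of 25 rose and 3 fell, against 8.66% of all genes called. Without PBS replicate 3 the counts were the same (8.18% of all genes called), but the genes changed. Smad7 (adjusted p = 0.0827) and Id2 (adjusted p = 0.0837) lost their calls. Dusp6 was then called higher (adjusted p = 0.00119) and Jak1 lower (adjusted p = 0.0416). The cold calls of Ghr, Stat5a, Spry2 and Spry4 were lost in 2 to 6 of 15 alternatives.

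Binding proteins and inhibitors differed mainly between tissues: 9 of 10 tested at D4 and 8 of 10 at D3 were lower in BAT, and none was higher, against 26.3% and 23.6% of all genes lower. Without SAT DTR- D4 replicate 3, the D4 count was again 9 of 10. Igfbp4, which binds Igf1, averaged 61.1 ± 12.9 CPM in BAT and 947 ± 211 CPM in SAT at D4 (-3.97 ± 0.22, adjusted p = 1.12e-10). Fstl1, a follistatin-like secreted protein, fell by 3.15 ± 0.26 (adjusted p = 4.26e-08), and was 38.01 ± 6.25 CPM in BAT and 334 ± 112 CPM in SAT. Within BAT, at most 1 of 9 or 10 tested binding proteins was called in a comparison. Among the mediators, the growth hormone receptor Ghr, whose signal raises Igf1 in liver, was lower in BAT than in SAT at D4 (-2.03 ± 0.11, adjusted p = 6.05e-12).

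Among 29 other secreted factors in the table, 2 of 21 tested rose and 3 fell in CL (28.1% of all genes called), 4 of 20 rose and 3 fell in cold (8.66%), and 1 of 18 rose and 1 fell with depletion in D4 BAT (16.1%). The CL and D4 shares were below those over all genes. Without PBS replicate 3, 1 of 21 rose and 4 fell in CL (19.8% of all genes), and 3 of 21 rose and 4 fell in cold (8.18%). S100b, a factor of brown adipocytes that promotes their innervation, fell with depletion at D4 by 0.75 ± 0.17 (adjusted p = 0.00637) and in CL by 1.03 ± 0.26 (adjusted p = 0.00966), and rose in cold by 1.06 ± 0.19 (adjusted p = 0.00791). S100b is also on the list of Schwann cell and nerve markers, whose sums moved with it. These were 45.1 to 71.0 CPM in DTR+ and 84.9 to 112 CPM in DTR- D4 BAT. They were 44.4 to 62.8 CPM in DTR- CL, 128 to 212 CPM in cold and 79.6 to 89.6 CPM in DTR- PBS libraries. Of that list, 1 of 3 tested fell at D4, 1 rose and 1 fell of 3 in CL, and 1 of 2 rose in cold. Their part in the S100b result was not tested. Adiponectin, Adipoq, fell in cold by 1.45 ± 0.13 (adjusted p = 0.000281). Fgf9 rose in cold by 3.65 ± 0.78 (adjusted p = 0.0161), a call lost without cold replicate 2 or 3. Between tissues at D4, 6 of 24 were higher in BAT (22.6% of all genes), Nampt by 1.83 ± 0.09 (adjusted p = 1.84e-12) among them, and 15 lower (26.3%), among them Retn (-4.37 ± 0.31, adjusted p = 1.73e-08). Without SAT DTR- replicate 3 these were 4 and 15. In SAT with depletion, with PC61 and with aIFNg, no gene of these 5 lists was called.

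Over the 38 BAT libraries, which share depth and composition effects, the genes most like each member were ranked by Pearson r of log2 CPM among 9201 genes (9200 for Nrg4 and Igf1). For Gdf15 these were Litaf (r = 0.902), Hmox1 (0.898) and Ifrd1 (0.885). For Fgf21 they were Khdc4 (0.836), Ccar1 (0.818) and Mrto4 (0.802). For Nrg4 they were Rab7 (0.869), Acsl1 (0.858) and Cycs (0.857), and for Igf1 they were AU020206 (0.724), Birc3 (0.709) and Ddx58 (0.704). Fgf21 and Gdf15 were related to each other at r = 0.747 (Spearman rho 0.704), and Nrg4 and Igf1 at r = -0.399. Bmp8b and Il6 had at least 10 counts in 7 libraries and 1 library, and were not ranked. These values describe the libraries and carry no test.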

How the data were processed

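Whole-fat and sorted Treg RNA was made into Smart-seq2 libraries with oligo(dT) priming, per the labels' protocols. An input of 2 ng of RNA is given for whole fat only. The authors deposited a table of whole-number read counts per gene, and per the submitters' processing notes reads were mapped with STAR 2.7.3a to mm10 and assigned with featureCounts. Neither an annotation release nor a strand setting was given in the sources used here. No column was left unused.

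The 6 members and all gene lists were chosen with earlier results of these data known. Each comparison was fitted on the libraries of its groups (interactions on all 4 groups, and the CL groups with DTR- PBS in 1 fit) with edgeR 4.0.16 in R 4.3.3: low counts were filtered with filterByExpr, TMM factors computed, robust quasi-likelihood tests run, and p-values adjusted over all genes tested by the Benjamini-Hochberg method, with calls under 0.05. A gene can pass the filter through 1 group where it is high, so shares of members called are no test of the 6 genes as a set. Levels are CPM scaled by TMM factors. Ratios of summed counts carry 95% exact binomial intervals. Library totals ran from 3007241 to 9673342 counts, groups held 3 or 4 libraries, and intervals cover counting error only. The scripts were tested on simulated data, 1 set a comparison. They recovered 18 to 58% of genes with a log2 change of 1 and 63 to 93% with a change of 2. For a change of 1, recovery was 21% for CL over PBS and 19% within CL and in cold. False calls made up 2.3 to 9.88% of those called. Alternatives were DESeq2 1.42.0, RLE factors, no filter, all libraries of the tissue in 1 fit, a replicate block, each library left out and other control groups. Library totals without TMM factors, and D3 and D4 controls for CL, were chosen after seeing the data, as were counts of list genes without the pair of libraries that stood apart. From each pathway list, up to 4 called genes a comparison were named by smallest p (otherwise the 2 with the highest mean CPM). List genes given beyond these, such as Cebpb, Chac1, Atf5 and Psat1, were added after their values were seen. Likeness was ranked for members with at least 10 counts in at least 10 BAT libraries, among genes with a mean of at least 5 CPM, leaving out predicted and ribosomal genes.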

Additional observations from a re-analysis of the deposited data

Results flagged for a closer look

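The effect of Treg depletion at D4 differed between BAT and SAT for 7 genes of the pathway lists, 3 of 25 mediators, 3 of 14 genes of the stress-response list, 1 of 19 receptors, 0 of 10 binding proteins and 0 of 24 other secreted factors, against 4.11% of all genes (BAT effect minus SAT effect on the log2 scale, edgeR interaction test): Socs3 by 2.61 (adjusted p = 0.00153), Stat3 by 0.88 (adjusted p = 0.00519), Il6st by 0.72 (adjusted p = 0.0275), Atf4 by 0.73 (adjusted p = 0.0106), Psat1 by 1.02 (adjusted p = 0.0103), Ddit3 by 0.88 (adjusted p = 0.0461) and Id1 by -1.09 (adjusted p = 0.0137). Without SAT DTR- D4 replicate 3, 2 of 26 mediators were called higher and 1 lower, against 4.89% of all genes. Called higher were also 4 of 14 genes of the stress-response list, 2 of 19 receptors, 1 of 10 binding proteins and 0 of 24 other secreted factors. Socs3, Stat3 and Atf4 kept their calls in each of 22 alternatives. Ddit3 lost its call in 12 of 22, Il6st in 5, and Id1 and Psat1 in 1 each. T and NK cell markers stood at 21.2 to 58.6 CPM in DTR+ and 6.45 to 8.09 CPM in DTR- BAT, and at 37.5 to 43.6 CPM in DTR+ and 21.3 to 191 CPM in DTR- SAT. Summed macrophage and monocyte markers stood at 636 to 1349 CPM in DTR+ and 188 to 414 CPM in DTR- BAT, and at 1799 to 2839 CPM in DTR+ and 1116 to 2917 CPM in DTR- SAT. In the same test 3 of 12 macrophage and monocyte markers (median 1.57) and 1 of 10 T and NK cell markers (median 4.12) were called higher, and 7 of 12 and 1 of 10 were without SAT DTR- replicate 3. The part of either list in these results was not tested.

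In 4 of 23 sets of 4 libraries, 1 library alone had counts and the other 3 were at 0, so that it counts as far from them whatever its value, and the usual rate of about 1 in 20 sets by chance does not apply. These were Bmp8b at 0.2497 CPM in SAT DTR- D4 replicate 3 and at 0.2242 CPM in SAT DTR+ D4 replicate 2, and Il6 at 0.1524 CPM in BAT DTR+ D4 replicate 2 and at 0.7164 CPM in SAT DTR+ D4 replicate 4. They rest on 2, 2, 1 and 6 counts.

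Sorted Treg cells, which enter none of the comparisons, held counts of 4 members above the limit of 3 that a count of 0 allows. Nrg4 had 18 counts summed over the BAT Treg libraries (a mean of 1.89 CPM), 32 over the SAT ones (2.20 CPM) and 64 over the spleen ones (3.81 CPM). Igf1 had 4, 9 and 42 counts in Treg cells of BAT, SAT and spleen, Bmp8b had 8, 7 and 4, and Il6 had 6 in spleen. The Nrg4 level was far below that of whole BAT, where no library had fewer than 502 counts.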

How the results depend on the processing

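Over the alternatives run, Gdf15 in DTR+ over DTR- BAT at D4 (14 alternatives), Fgf21 and Gdf15 in CL over PBS (14 each), Bmp8b in cold (15) and Nrg4 and Igf1 in BAT over SAT (14 at D4, 12 at D3) kept direction and call. Compared with the reported number of members called, BAT D3 gave 1 without a filter (0 reported) and 0 to 1 with a library left out. DTR+ over DTR- within CL gave 0 with RLE factors, 0 with the replicate block and 0 with any library left out (1 reported). Cold gave 2 with DESeq2, 4 without a filter, 4 in the fit of all BAT libraries and 1 to 2 with a library left out (1 reported). The D4 BAT minus SAT effect gave 1 without a filter, 1 with library totals and 0 to 1 with a library left out (0 reported). The cause was not tested. Igf1 in cold passed with DESeq2 (adjusted p = 0.0267), without a filter (adjusted p = 0.0181), over all BAT libraries (adjusted p = 0.0148) and without cold replicate 2 (-1.001, adjusted p = 0.0393). Nrg4 in cold passed without a filter (adjusted p = 0.0417) and over all BAT libraries (adjusted p = 0.0218).

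Small differences changed sign. Nrg4 turned to 0.016 (SAT D4 without DTR- replicate 3), -0.00017 (SAT D3 without DTR+ replicate 1), -0.00081 and -0.077 (within CL without DTR- replicate 2 or DTR+ replicate 1), and -0.00044, -0.072 and -0.0028 (PC61, all BAT libraries, without isotype replicate 3 or PC61 replicate 3). Igf1 turned to 0.0018, 0.0085 and 0.057 (SAT D3, library totals, without DTR- replicate 2 or DTR+ replicate 3), 0.0996 (PC61 without isotype replicate 3) and -0.022 (BAT D4 minus D3 without DTR- D3 replicate 3). Gdf15 turned to 0.18 and 0.36 (aIFNg without aIFNg replicate 2 or isotype replicate 3) and Fgf21 to -0.40 (D3 BAT minus SAT without SAT DTR- replicate 2). With a library left out, the values of these results reached -0.275 (Nrg4, SAT D4), -0.068 (Igf1, SAT D3), 0.095 (Nrg4, within CL), 0.13 and -0.29 (Nrg4 and Igf1, PC61), -0.48 (Gdf15, aIFNg), 1.17 (Fgf21, D3 BAT minus SAT) and 0.41 (Igf1, D4 minus D3) at their other end. In CL, Igfals turned to 0.30 with D3 controls and Fndc5 to 0.71 with D4 controls.

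Counts over all genes moved by over 1.5 times as follows, in the order DESeq2, no filter and all libraries of the tissue where the setting is not named. SAT D4 had 40, against 93 with DESeq2, 155 without a filter and 62 over all SAT libraries. BAT D3 had 411, against 788 without a filter, 211 over all libraries and 628 with library totals. SAT D3 had 0, against 18, 72, 2 (all libraries) and 11 (block). CL had 3390, against 5450 over all libraries. Within CL there were 930, against 1581, 1552 and 3036. PC61 had 75, against 219, 347 and 7, and aIFNg 65, against 172 without a filter and 0 over all libraries. Cold had 1068, against 1603, 1744, 2362 and 658 (block), and 2724, 3864 and 2828 with D3, D4 and isotype controls. The D4 BAT minus SAT effect had 555, against 987 with DESeq2, 887 without a filter and 1073 with library totals. The D3 BAT minus SAT effect had 9, against 130 with DESeq2, 273 without a filter, 2 over all libraries, 5 with the block and 62 with library totals. The BAT D4 minus D3 effect had 0, against 4 with DESeq2 and 45 without a filter. With 1 library left out, these counts moved as follows: SAT D4 to 23 (DTR- 4) and 24 (DTR+ 2), BAT D3 to 258 (DTR- 1), 118 and 194 (DTR+ 1 and 2), SAT D3 to 10 (DTR+ 1), within CL to 499 and 418 (DTR- 1 and 2) and 376 and 310 (DTR+ 1 and 3), PC61 to 29 and 29 (isotype 2 and 3) and 11 and 49 (PC61 1 and 3), aIFNg to 41 (aIFNg 4) and 40 (isotype 3), and cold to 621 (PBS 1) and 610, 640 and 499 (cold 1, 2 and 3). The D4 BAT minus SAT count fell to 309 and 310 (BAT DTR- 2 and 4), 327, 343 and 355 (BAT DTR+ 2, 3 and 4), 324 (SAT DTR- 4) and 335 (SAT DTR+ 3). The D3 one moved to 5 and 49 (BAT DTR- 2 and 3), 5, 4 and 17 (BAT DTR+ 1, 2 and 3), 4 and 63 (SAT DTR- 1 and 3) and 14, 5 and 5 (SAT DTR+ 1, 2 and 3), and the D4 minus D3 one to 11 and 1 (DTR+ D4 1 and 4).

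Replicate numbers gave no clear pairing of the samples. Same-numbered libraries deviated together at r between -0.23 and 0.162, and no comparison had every pair above 0.1. In DTR+ D3, same-numbered BAT and SAT libraries stood at 0.0448 to 0.132 (mean of other pairs -0.0463). In DTR- D4 they stood at 0.0377 to 0.12 (others -0.0268), and in DTR- D3 at -0.135 to -0.0296 (others 0.0434). The SAT library that deviated most alike had the same number for 3 of 3 BAT libraries in DTR+ D3 and 3 of 4 in DTR- D4. It did for 2 of 4 in DTR+ D4 and 0 of 3 in DTR- D3. Whether BAT and SAT came from the same mice was not settled by these values, and the main fits left out any pairing. With the replicate block, Igf1 within CL had an adjusted p of 0.0779 and Gdf15 in BAT over SAT at D4 one of 0.121. For aIFNg over isotype alone, no paired analysis was possible because the groups share a single number. Il6, Bmp8b outside the cold group and, in many groups, Fgf21 were limited by depth.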
